A study of Mus musculus with 17 samples.

Results

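The late response of *Usb1* knockout embryonic stem cells to retinoic acid (RA), from day 1 to day 3 of treatment, was followed in 6 of the 17 RNA-sequencing libraries of the study. They are the 3 libraries of *Usb1* knockout cells at day 1 and the 3 libraries of the same cells at day 3, taken by their labels and not by any measured value. USB1 is the exonuclease that trims the 3′ end of U6 snRNA, an RNA at the catalytic centre of the spliceosome, and the study set wild-type beside knockout cells at day 0, 1 and 3 of RA. All were R1/E mouse embryonic stem cells. The knockout libraries came from a single CRISPR/Cas9 line, KO-1, with a frameshift in *Usb1*, so that a difference between the genotypes includes whatever else sets this line apart. The replicates were described as biological replicates, and the RA dose is not given in the sources used here. Levels are in TPM, a share of all transcripts corrected for gene length, so that they can be set side by side between genes.

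RA is carried through the cell by the CRABP proteins and bound in the nucleus by heterodimers of RAR and RXR receptors, which switch on target genes such as *Rarb*, *Cyp26a1*, whose enzyme degrades RA, and the 3′ members of the *Hox* clusters. Embryonic stem cells given RA leave the pluripotent state that *Pou5f1* (Oct4), *Nanog* and *Sox2* maintain. Depending on the culture and the dose, they take up neural, extraembryonic endoderm or mesenchymal programmes.

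The receptors recognise direct repeats of a short half-site, and the promoters of *Rarb* and *Cyp26a1* are shown because they hold such a repeat and lie at RA genes described below. The half-site was searched for as AGGTCA or AGTTCA or GGGTCA or GGTTCA, in a direct repeat with 5 bases between the copies, on both strands of RefSeq promoters from 250 bases before to 50 bases after the start site (GRCm38.p6). The sequences read 5′ to 3′ along the gene, with the repeat in capitals and 6 bases on each side.
*Rarb*, chr14:16575507-16575535, minus strand: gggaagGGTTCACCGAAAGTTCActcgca
*Cyp26a1*, chr19:37697770-37697798, plus strand: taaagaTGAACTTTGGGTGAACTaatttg
In *Rarb*, which encodes RA receptor beta, the repeat reads along the gene and ends 36 bases before the RefSeq start, within the first exon of other transcripts in GENCODE. In *Cyp26a1* it reads on the opposite strand and ends 15 bases before the start. The repeat was found in 5 of 11146 tested genes with a RefSeq promoter (*Rarb*, *Cyp26a1*, *Blvrb*, *Cfap45* and *Syndig1*) and in 0.0974% of all 32851 promoters. A match describes the letters in this window and is not a measured binding site.

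*Usb1* was read first. The knockout libraries had 20.7, 21.4 and 18.5 TPM at day 1 and 14.7, 17.2 and 20.4 TPM at day 3, values that overlap (log2 fold change −0.21, limma adjusted p = 0.233). The wild-type libraries had 52.5 ± 4.2 TPM on day 1 (SD, n = 3) and 33.8 ± 1.9 TPM on day 3, above the knockout on both days, and *Usb1* transcript was still present in the knockout. The Y-linked genes *Eif2s3y*, *Ddx3y* and *Uty* had 0 reads in all 9 knockout libraries, whereas wild-type libraries of day 1 and 3 held 61.8 to 70.4 TPM of *Eif2s3y*. *Kdm5d*, also Y-linked, was at 0 in the knockout and in wild-type libraries of day 1 and 3, and so does not separate them.

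The 6 libraries held 15505026 to 17300186 reads on genes. Pearson's r of log2(TPM + 1) was 0.979 to 0.980 within day 1, 0.966 to 0.976 within day 3 and 0.884 to 0.890 between the days. Knockout day 3 replicate 1 stood apart. Only 1224 genes had a single read in it, against 2252 to 2467 in the other 5 libraries, and it lay away from the other day 3 libraries on the second principal component (10.9% of the variance, after 73.0% on the first). Without it 3445 genes were called in place of 3301, with 3069 in common, and no count of a gene list given below changed by more than 1. Mitochondrially encoded genes took 5.03% to 5.44% of TPM at day 1 and 6.87% to 7.94% at day 3, and their part in the results was not tested.

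Of 17508 genes with at least 1 TPM in at least 3 of the 6 libraries, 3301 (18.9%) were called, meaning a limma adjusted p under 0.05 and at least a 2-fold change on the log2(TPM + 1) scale. At day 3, 2055 (11.7%) were higher and 1246 (7.12%) lower, and among protein-coding genes 19.9% were called. The balance of directions depended on the scaling. It was 62.3% higher as deposited and 47.8% with every library set to an equal median (1584 higher, 1728 lower), which moved the median log2 fold change of all genes from 0.07 to −0.13. In 10565 genes (60.3%) every library of one day lay above every library of the other, so separated days were the common case. A gene under 1 TPM in each library of one day passed the filter only through the other day, which nearly fixed its direction. This limits the count of every gene list below that holds such genes. Being bulk RNA, the libraries cannot tell more cells of a type from more RNA per cell.

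**Figure D1:**
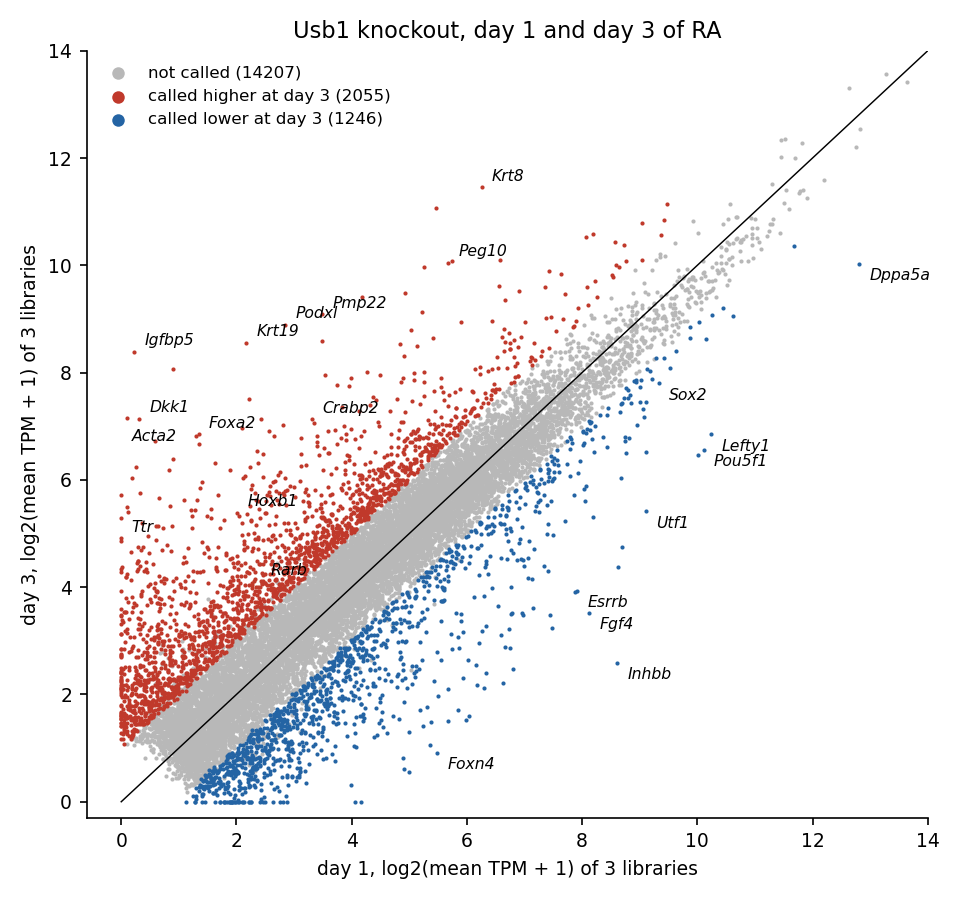
Mean level of each of the 17508 genes tested in *Usb1* knockout cells at day 1 (x axis) and day 3 (y axis) of RA, as log2(mean TPM + 1) over 3 libraries. The 2055 genes called higher (red) and the 1246 called lower (blue) lie on either side of the diagonal, with *Igfbp5* (8.16) and *Inhbb* (−6.03) far from it.

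Most of the pluripotency network was lost after day 1. Of 15 genes of naive pluripotency tested, 12 fell and none rose (median log2 fold change −2.44), and of 14 core and formative genes 9 fell and 1 rose (median −1.27). *Pou5f1*, the central factor of the network, had 1085, 1121 and 1104 TPM at day 1 and 90.7, 95 and 95.5 TPM at day 3 (log2 fold change −3.54 ± 0.05 SE, limma adjusted p = 1.1e-07). Its day 0 mean was 1390.3 TPM, so that most of the loss came after day 1. *Nanog*, a homeobox factor of the naive state, fell from 1006, 1026 and 1044 TPM to 82, 86.3 and 93.3 TPM, and its day 1 libraries were above its day 0 mean of 811 TPM. *Sox2*, the partner of Oct4 on DNA, fell from 645, 643 and 646 TPM to 209.6, 249 and 211 TPM and kept the highest level of the 3 at day 3.

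*Esrrb*, a nuclear receptor of the naive state, fell from 246, 258 and 215 TPM to 12.6, 16.8 and 13.4 TPM. *Zfp42* (Rex1), a common marker of that state, fell from 546, 560.1 and 539 TPM to 85.8, 96.7 and 89.8 TPM. *Klf2* fell from a mean of 291 to 38.7 TPM, and *Nr0b1* (Dax1), *Tcl1* and *Prdm14* fell by 4.43, 4.47 and 2.44 on the log2 scale. *Klf4* and *Klf5* were lower than at day 0 already at day 1 (means of 295 and 450.4 against 63.7 and 125 TPM) and ended at 32.5 and 70.1 TPM, short of 2-fold. *Tbx3* had 192 and 217 TPM (limma adjusted p = 0.165), the only one of the 15 with a positive value.

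*Dppa5a*, an RNA-binding protein of pluripotent cells, had the largest loss in TPM among called genes, from 7050.4, 6762 and 7762 to 1250.5, 1034 and 857. *Utf1*, a chromatin protein of these cells, fell from 541, 559 and 556 TPM to 46.6, 44.9 and 33.6 TPM. *Tdgf1* (Cripto, the co-receptor of Nodal) and *Pou3f1* fell by 2.80 and 1.62 on the log2 scale. The gene of the list that rose was *Dnmt3l*, a cofactor of the de novo DNA methyltransferases, from a mean of 5.85 to 13.2 TPM, and it kept that call in 11 of 15 alternatives. *Lin28a* (62.8 and 121 TPM) and *Sall4* (126 and 131 TPM) were not called. *Fgf5*, a marker of primed epiblast, reached at most 1.37 TPM in the 6 libraries and was not tested.

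**Figure D2:**
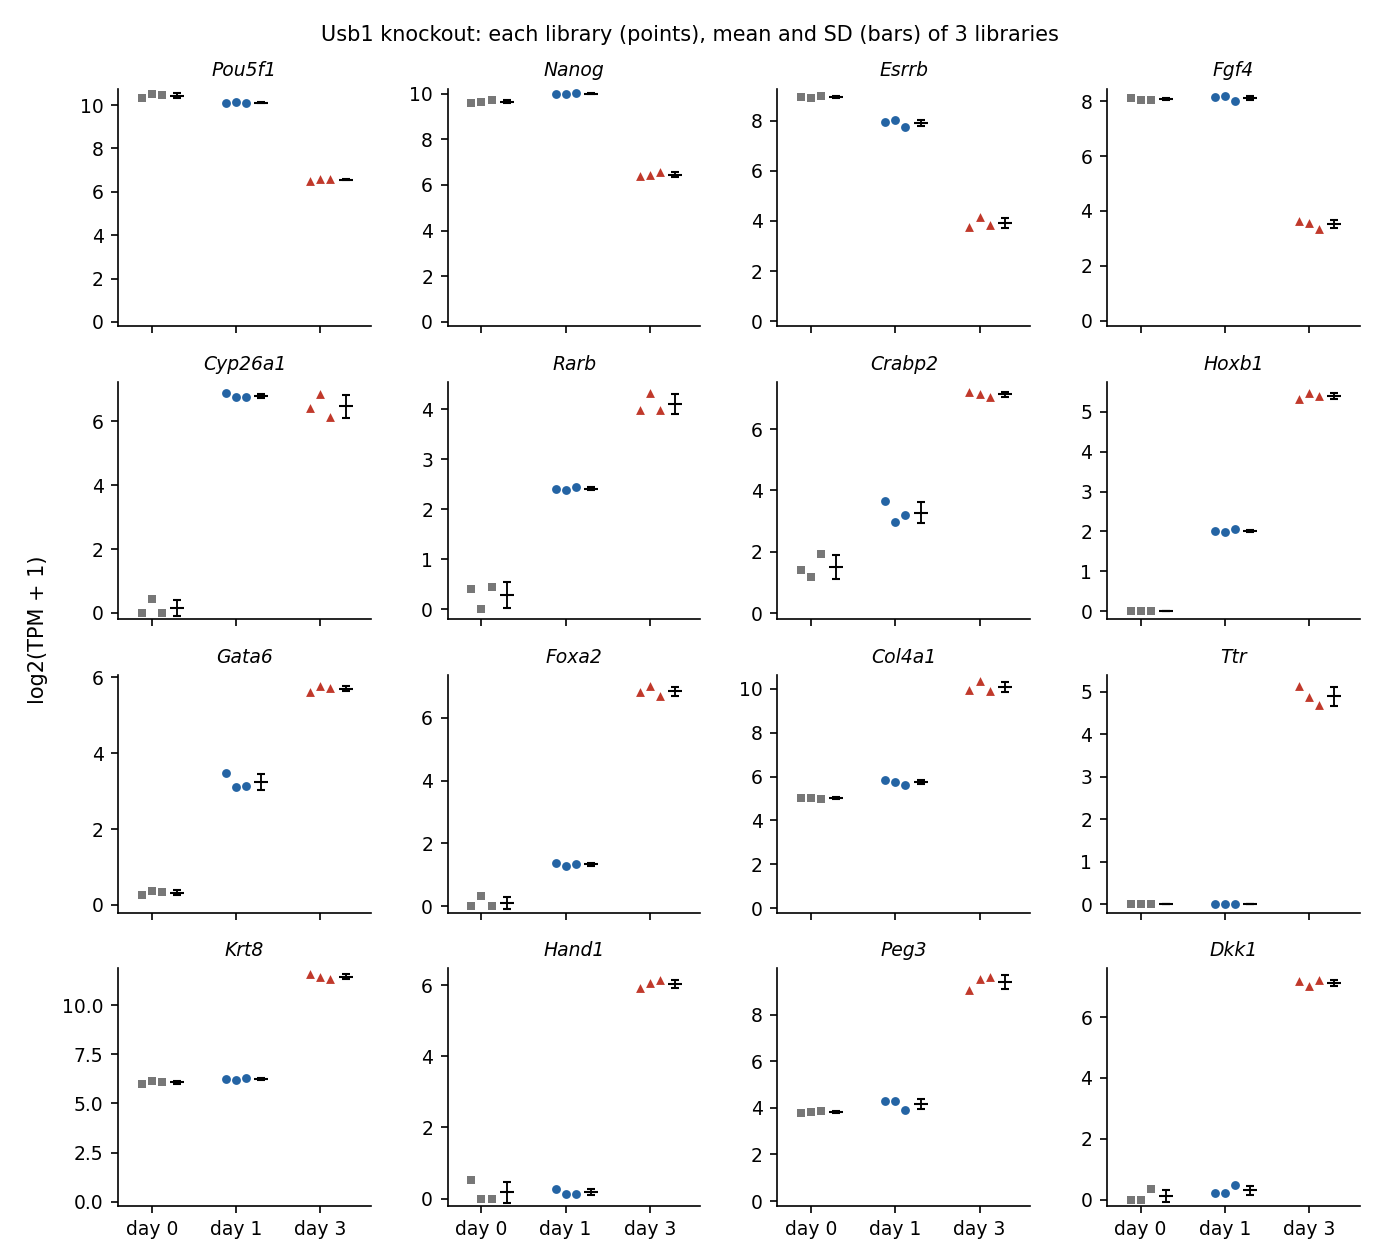
Levels of 16 genes, as log2(TPM + 1), in each of the 9 *Usb1* knockout libraries at day 0, 1 and 3 of RA. *Pou5f1* has a mean of 1103 TPM at day 1 and 93.7 TPM at day 3, *Cyp26a1* is already at 110.3 TPM at day 1, and *Krt8* goes from 75.3 to 2816 TPM.

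Among signals, *Fgf4*, the FGF ligand that stem cells make, fell from 284, 288 and 258 TPM to 11.5, 10.8 and 9.26 TPM (log2 fold change −4.60 ± 0.09, limma adjusted p = 2.2e-07). Of 12 other genes of FGF signalling and ERK feedback tested, 3 rose and 4 fell (median 0.34). The receptor *Fgfr2* rose from 4.42, 5.16 and 4.52 TPM to 37, 44.1 and 41.1 TPM, the phosphatase *Dusp4* from a mean of 6.97 to 57.6 TPM, and *Spry1* from 10.8 to 27.8 TPM. The ETS factors *Etv4* and *Etv5*, which ERK signalling induces, fell from 99.9 to 6.4 TPM and from 207 to 36.6 TPM, and *Fgf15* and *Spry4* fell by 2.56 and 2.05 on the log2 scale. *Dusp6*, the ERK phosphatase, had 48.3 and 55.3 TPM. Genes of the one pathway thus moved both ways.

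Of 17 genes of Nodal, activin and BMP signalling, 6 rose and 5 fell (median 0.49). Those that fell were *Inhbb*, *Nodal*, *Lefty1*, *Lefty2* and *Gdf3*, all ligands or secreted inhibitors of the Nodal and activin side. *Inhbb*, the beta-B subunit of activin, went from 400.2, 397 and 368 TPM to 4.87, 6.21 and 4.0 TPM (−6.03 ± 0.13). *Nodal* went from 239, 210.0 and 212 TPM to 66.3, 76.1 and 57.6 TPM, and the means of its inhibitors *Lefty1* and *Lefty2* from 1204 to 114 TPM and from 169 to 62.2 TPM. Those that rose were on the BMP side. The ligand *Bmp2* rose from 0.0597, 0.171 and 0.054 TPM to 5.77, 6.92 and 4.97 TPM, and *Bmp4* from a mean of 25.5 to 59.2 TPM. *Bmp2* passed the filter only through day 3, which nearly fixed its rise. The others were the decoy receptor *Bambi* (10.4 to 96.2 TPM), the inhibitor *Smad6* (29.2 to 106 TPM), the target *Id3* (97 to 407 TPM) and the antagonist *Nog* (0.519 to 7.39 TPM). *Id1* (486 and 639 TPM) was not called.

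Of 9 genes of LIF and STAT3 signalling, 4 rose and 1 fell, against 2 and 2 with an equal median. The receptor *Lifr* rose from 15.7, 16.7 and 13.5 TPM to 45.3, 55.7 and 56.2 TPM, together with its partner *Il6st* (18.6 to 44.2 TPM), *Junb* and *Socs3*. *Socs3*, the feedback inhibitor of STAT3, reached 27.3 TPM from 11.8 TPM, well under its day 0 mean of 244 TPM. The kinase *Pim1* fell from 142 to 25.1 TPM.

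Of 21 genes of RA metabolism, binding and receptors tested, 5 rose (23.8%) and 2 fell (9.52%), with a median of 0.23. Over all genes tested 11.7% rose and 7.12% fell, so the falls were near the common share. With an equal median 5 of the 21 genes were called higher and 4 lower, and their median was 0.02. The 3 enzymes that degrade RA took different courses. *Cyp26b1* rose from 1.11, 1.36 and 1.58 TPM to 25.9, 45.6 and 28.3 TPM, and *Cyp26c1* fell from 18.3, 18 and 15.1 TPM to 5.1, 7.04 and 4.63 TPM. *Cyp26a1*, with a day 0 mean of 0.118 TPM, had reached 116, 107 and 108 TPM at day 1, and its day 3 libraries of 84.3, 113 and 69 TPM overlap these (log2 fold change −0.34, limma adjusted p = 0.128). The enzymes that make RA, *Rdh10* and *Aldh1a2*, rose from means of 4.98 to 23.6 TPM and of 1.95 to 6.46 TPM.

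*Crabp2*, which carries RA to its receptors, rose from 11.6, 6.9 and 8.28 TPM to 148, 141 and 130.3 TPM (3.85 ± 0.16, limma adjusted p = 3.3e-06). *Crabp1* ended at 21.4 TPM from 41.7 TPM, just short of 2-fold. *Rarb*, whose repeat is printed above, rose from 4.31, 4.23 and 4.48 TPM to 15, 19.1 and 14.8 TPM with no overlap between the days. *Rarg* fell from 121, 122 and 114 TPM to 39.9, 45.2 and 45.1 TPM and *Rara* stayed at 76.4 and 63.2 TPM, so that of the RAR genes *Rarg* had the highest mean at day 1 and *Rara* at day 3. *Stra8*, a germline gene known for its induction by RA, had means of 10.3, 396 and 218 TPM at day 0, 1 and 3 and was not called.

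*Hox* genes lie in clusters along which RA acts from the 3′ end. Of 28 *Hox* genes tested 14 rose and none fell (median 0.97), with 1 called lower under other scalings. All 7 *Hoxc* genes tested rose, as did 6 of 10 *Hoxb*, 1 of 8 *Hoxa* and none of 3 *Hoxd* genes. A gene under 1 TPM in each day 1 library entered the test only through its day 3 libraries, which nearly fixed a rise. *Hoxc8* and *Hoxc9*, for example, were such genes, and *Hoxc11* and *Hoxc12* did not pass the filter. These counts therefore do not compare the clusters. *Hoxc8* rose from 0.524, 0.143 and 0 TPM to 22, 27.3 and 27.9 TPM and *Hoxc9* from 0.0873, 0.25 and 0.316 TPM to 21.6, 24.4 and 18.5 TPM. *Hoxc4*, *Hoxc5* and *Hoxc6* rose to means of 36.5, 18.4 and 5.96 TPM, and *Hoxc10* and *Hoxc13* to 2.68 and 7.8 TPM. The median *Hoxc* gene tested had 0.526 TPM at day 1 and 18.4 TPM at day 3.

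In the *Hoxa* cluster several genes were already on at day 1. *Hoxa3*, *Hoxa4* and *Hoxa5* had day 1 means of 24.3, 40.3 and 81.3 TPM and day 3 means of 23.6, 34.8 and 91.1 TPM, and none was called. *Hoxa2* was the one that rose, from 7.65, 9.82 and 7.14 TPM to 19.5, 21.3 and 19.8 TPM. In the *Hoxb* cluster *Hoxb1*, nearest the 3′ end, had the largest change, from 3.01, 2.97 and 3.14 TPM to 38.8, 43.1 and 40.9 TPM (3.37 ± 0.10, limma adjusted p = 8.8e-07). *Hoxb2*, *Hoxb8*, *Hoxb9* and *Hoxb13* rose to means of 9.69, 12.4, 50.4 and 11.9 TPM, whereas *Hoxb4*, *Hoxb5*, *Hoxb6* and *Hoxb7* were not called. *Hoxb3* (2.32 to 5.9 TPM) was close to the 2-fold limit and kept its call in 10 of 14 alternatives.

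**Figure D3:**
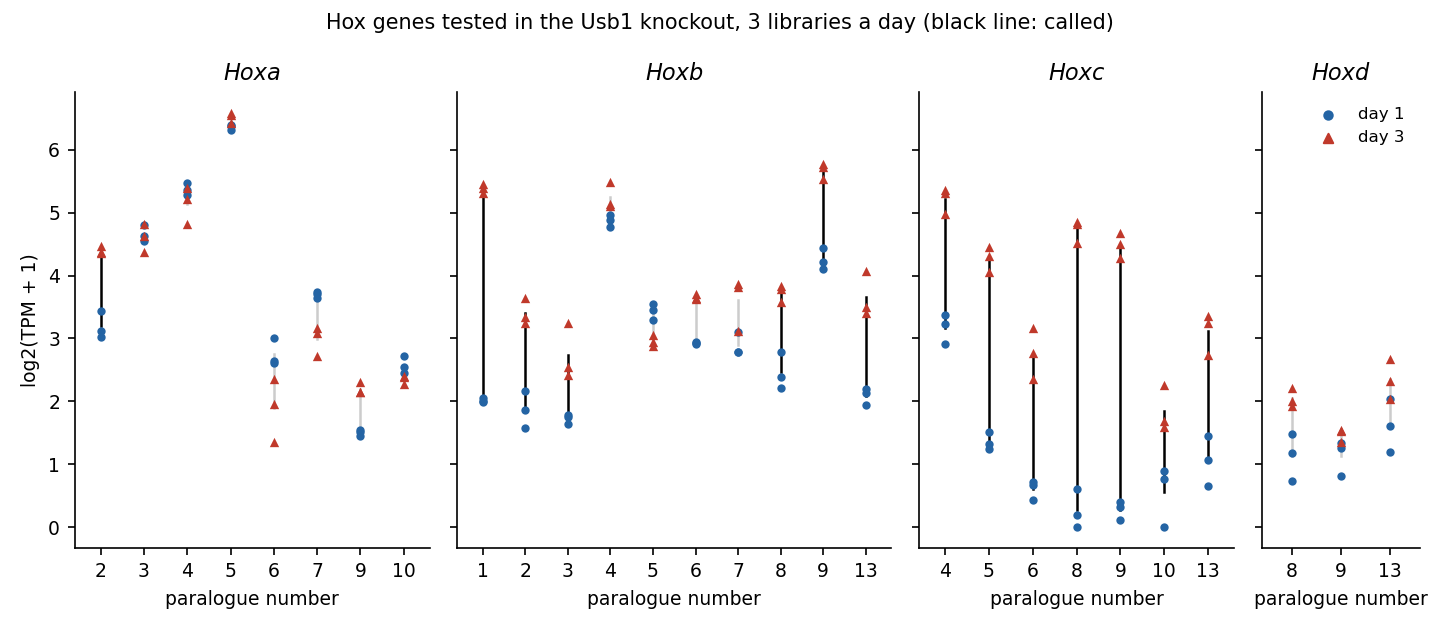
Levels of 28 *Hox* genes tested, by cluster and number, as log2(TPM + 1) in each *Usb1* knockout library at day 1 (blue circles) and day 3 (red triangles), with a black line where the gene was called and a grey line where it was not. All 7 *Hoxc* genes tested have black lines, against 1 of 8 *Hoxa* genes, though genes low at day 1 passed the filter only through day 3.

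Of 12 TALE and caudal homeobox genes, which include the DNA-binding partners of HOX proteins, 4 rose and 1 fell (median −0.08). The rises were 33.3% against 11.7% of all genes tested, and the fall 8.33% against 7.12%. *Cdx2*, among the rises, passed the filter only through day 3. *Meis1*, *Meis2* and *Meis3* rose from means of 1.82, 3.74 and 4.19 TPM to 25.8, 36.6 and 28.8 TPM, and *Cdx2* from 0.178 to 4.69 TPM. *Cdx1*, an early RA target, fell from 61.4, 60.0 and 55.5 TPM to 11.5, 10.4 and 8.87 TPM after a day 0 mean of 5.43 TPM. *Pbx2*, *Pbx3* and *Pbx4* were not called.

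Genes of the extraembryonic endoderm, the tissue of the yolk sac, rose in number. Of 8 transcription factors of primitive endoderm 7 rose and none fell (median 2.83). *Foxa2* rose from 1.61, 1.45 and 1.54 TPM to 112, 127 and 103 TPM (5.50 ± 0.11, limma adjusted p = 2.0e-07). *Gata6*, which specifies primitive endoderm, rose from 10.1, 7.58 and 7.83 TPM to 48.4, 53.5 and 52 TPM, and *Gata4* and *Sox17* rose from means of 2.19 and 0.427 TPM to 25.9 and 12.2 TPM. *Sox7*, *Foxa1* and *Foxq1* were the other three, and *Hnf4a* (0.806 and 1.39 TPM) was not called.

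Of 20 products of this tissue tested 16 rose and none fell (median 2.80). *Ttr* and *Afp*, described below, entered this count only through their day 3 libraries, which nearly fixed their rise. *Col4a1*, a basement membrane collagen, rose from 55.5, 53.6 and 48.4 TPM to 992, 1302 and 962 TPM. Its neighbour *Col4a2*, which starts 21 bases away on the other strand and overlaps it in the annotation, rose from a mean of 29.3 to 713 TPM. The laminin chains *Lama1*, *Lamb1* and *Lamc1* rose to 372, 444 and 1324 TPM from 27.7, 31.7 and 425 TPM, and *Sparc* from 119 to 731 TPM. *Nid1*, which encodes the basement membrane protein nidogen, had 125 and 155 TPM and was not called.

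Products of visceral endoderm differed in their day 1 level. *Ttr*, the carrier of thyroxine, had 0 reads in each day 1 library and 34.2, 28.6 and 24.8 TPM at day 3, at least 57-fold higher set against an upper limit of 3 reads in each library for a count of 0. *Afp*, alpha-fetoprotein, had 0 reads likewise and then 3.79, 4.26 and 3.98 TPM, at least 22.3-fold higher. *Cubn*, *Lrp2*, *Amn* and *Dab2*, which serve the endocytic receptors of the yolk sac, rose from means of 0.381, 7.66, 2.58 and 4.03 TPM to 30.1, 88.2, 13.9 and 52.7 TPM. *Plat*, tissue plasminogen activator, rose 37.7-fold in mean TPM. *Apoe* (409 and 260.2 TPM), *Apob* and *Rbp4* were not called.

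*Krt8* and *Krt18*, the keratin pair of simple epithelium, had the largest gains in TPM among called genes. *Krt8* went from 75.7, 71.9 and 78.3 to 3089, 2769 and 2589.8 TPM and *Krt18* from 45.5, 41 and 43.7 to 2390.5, 2024 and 2001 TPM. *Krt19* and *Krt7* rose from means of 3.5 and 0.211 TPM to 376 and 20.7 TPM. *Acta2*, smooth muscle actin, rose from 0, 0.228 and 0 TPM to 146, 127 and 153 TPM, and *Acta1*, skeletal muscle actin, from 0.138, 1.19 and 1.25 TPM to 286, 249 and 267 TPM. The days were far apart for each of these genes.

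Of 17 genes of epithelial and mesenchymal state 13 rose and none fell (median 2.22). *Vim*, the intermediate filament of mesenchyme, rose from 60.5, 57.2 and 57.1 TPM to 516, 460.0 and 506 TPM, *Cdh2*, N-cadherin, from a mean of 1.34 to 39.4 TPM, and *Fn1*, fibronectin, from 399.5 to 1006 TPM. The repressors *Snai1*, *Snai2* and *Zeb2* rose to 30.4, 7.5 and 3.57 TPM. The epithelial adhesion genes *Cdh1* (465 and 594 TPM) and *Epcam* (130.2 and 130.0 TPM) were not called. Genes of epithelium and of mesenchyme were both present in the day 3 libraries.

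Of 17 genes of interstitial collagen, IGF and IGF binding 16 rose and none fell (median 2.47). Among them *Igfbp5*, *Igf2*, *Col3a1* and *H19* were under 1 TPM in each day 1 library. They passed the filter only through day 3, which nearly fixed their rise. *Igfbp5*, a secreted IGF binding protein, had the largest log2 fold change among genes that met the naming rule, from 0.177, 0.202 and 0.128 TPM to 295, 373 and 335 TPM (8.16 ± 0.11, limma adjusted p = 1.1e-07). *Igfbp2*, *Igfbp3* and *Igfbp4* rose to means of 2261, 266 and 68.1 TPM, and *Igfbp7* (3.49 and 3.36 TPM) was the one not called. *Igf2*, the fetal growth factor, rose from 0.0371, 0.177 and 0 TPM to 31.3, 52.5 and 48 TPM. Its receptors *Igf1r* and *Igf2r* rose from means of 8.1 and 49.9 TPM to 53.7 and 164 TPM. *Col3a1*, with 0 reads in each day 1 library, had 9.35, 10.1 and 10.8 TPM at day 3, at least 163-fold higher. *Col1a1* and *Col5a1* rose to 39.2 and 86.9 TPM, and the collagen chaperone *Serpinh1* from a mean of 291 to 1544 TPM.

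Of 15 Wnt genes tested 11 rose and 1 fell (6.67%, near the 7.12% of all genes tested), with a median of 1.82. *Dkk1* and *Sp5*, under 1 TPM in each day 1 library, passed the filter only through day 3. *Dkk1*, a secreted inhibitor of the Wnt coreceptor, rose from 0.175, 0.167 and 0.395 TPM to 145, 129.5 and 147 TPM (6.83 ± 0.12, limma adjusted p = 1.9e-07). The ligand *Wnt6* rose from 2.9, 1.85 and 3.41 TPM to 77.6, 69.8 and 68.5 TPM, and *Wnt3*, *Wnt4*, *Wnt5a* and *Wnt5b* rose to means of 6.33, 11.8, 2.13 and 11.4 TPM. The targets *Axin2* and *Sp5* rose from 2.08 and 0.228 TPM to 9.88 and 19.2 TPM. Of the secreted SFRP inhibitors, *Sfrp5* rose from 7.13 to 35.7 TPM and *Sfrp1* fell from 182 to 69.7 TPM.

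Of 13 mesoderm genes tested 6 rose and 3 fell (median 0.94), with *Hand1* among those that passed the filter only through day 3. *Hand1*, a factor of lateral and extraembryonic mesoderm, rose from 0.212, 0.101 and 0.0961 TPM to 59.2, 65.9 and 69.5 TPM, and *Hand2*, *Foxc2*, *Meox1*, *Gata3* and *Tbx20* rose to means of 9.65, 16.3, 7.01, 71.6 and 5.39 TPM. *Foxf1*, outside the list and another factor of lateral mesoderm, rose from 0, 0.42 and 0.159 TPM to 70.8, 79.8 and 74.2 TPM. *Tcf15* fell from 396, 377 and 412 TPM to 23.1, 21.6 and 14.8 TPM. *Eomes* and *Mixl1*, of the primitive streak, fell from means of only 6.05 and 2.09 TPM, and *T* (brachyury) and *Mesp1* had at most 1.65 and 0.759 TPM in the 6 libraries. These streak genes were therefore low in the libraries of both days, and the time between was not sampled.

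Neural genes had no common direction. Of 22 listed 12 were tested, of which 4 rose and 3 fell (median 0.02), with 5 called lower under a pseudocount of 0.1 and also in a voom fit of reads recovered from TPM, an alternative chosen after seeing the data. *Nes*, nestin, rose from 5.59, 5.09 and 5.17 TPM to 105, 124 and 106 TPM, and *Sox11*, *Irx3* and *Ncam1* rose to means of 39, 78 and 24 TPM. *Sox1*, an early marker of neuroectoderm, fell from 26.1, 27.1 and 26.8 TPM to 3.17, 4.1 and 2.99 TPM, *Tubb3*, neuronal tubulin, from a mean of 66.5 to 26.3 TPM, and *Nkx6-2* by 1.92 on the log2 scale. *Pax6* had 0.999 and 0.794 TPM, and *Neurog2*, *Olig2* and *Dcx* stayed under the filter.

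Markers of other cell types were read beside these. Of 10 trophoblast genes tested 8 rose and 1 fell, and the summed level of the list went from 36.6 to 38.1 TPM at day 1 up to 316 to 322 TPM at day 3, with *Prl3d1* and *Tpbpa* at 0 in all 6 libraries. The list shares *Gata3*, *Hand1*, *Krt7* and *Cdx2* with tissues named above, and *Plac1* and *Rhox6* rose to means of 20.1 and 76.8 TPM. *Hand1*, *Krt7* and *Cdx2* passed the filter only through day 3. Of 6 fibroblast genes tested 4 rose, all of them collagens or *Dcn*, with a summed level of 18.3 to 20.1 TPM at day 1 and 95.3 to 109 TPM at day 3 and *Fap* at 0. Of 4 endothelial and blood genes tested *Flt1* and *Cdh5* rose to 21.5 and 4.3 TPM and *Pecam1*, which stem cells also express, fell from 70.4 to 4.83 TPM, with *Ptprc* at 0. The summed level of that list was 73.8 to 85.9 TPM at day 1 and 36.0 to 42.1 TPM at day 3. Of 5 heart and muscle genes tested *Myh7* and *Actc1* rose, to 2.72 and 3.74 TPM. With a minimum of 5 TPM neither passed the filter, so neither was tested there. The summed level of the heart and muscle list was 85.4 to 99.4 TPM at day 1 and 69.7 to 83.4 TPM at day 3. None of the 7 genes of the 2-cell-like list reached the filter. The part of such cells in the results was not tested.

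Of 21 imprinted genes tested, which are expressed from a single parental copy, 17 rose and none fell (median 2.05). *Peg3* rose from 18.8, 18.5 and 14.2 TPM to 527, 736 and 778 TPM, and *Zim1*, which starts 33981 bases away in the same cluster, from 1.63, 1.8 and 1.23 TPM to 74.7, 107 and 119.8 TPM. *Peg10* rose from 53.6, 52.3 and 44.6 TPM to 856, 1068 and 1253 TPM and *Sgce*, which starts 99 bases away on the other strand, from a mean of 3.08 to 19.2 TPM. In both pairs the neighbours rose together.

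In the cluster on chromosome 12 *Dlk1*, from the paternal copy, rose from 21.6 to 247 TPM, and the maternal noncoding RNAs *Meg3*, *Rian* and *Mirg* from 6.13, 8.24 and 1.67 TPM to 54.2, 55.8 and 9.31 TPM. Genes known for expression from either parental copy were thus among those that rose, though the copy itself was not measured. *H19*, counted with the IGF genes, rose from a mean of 0.0275 to 3.54 TPM. *Airn* rose to 17.3 TPM. It overlaps *Igf2r* on the opposite strand, and with no strand setting given for the counting reads of the overlap cannot be told apart. *Nnat*, *Peg13*, *Phlda2* and *Snrpn* were the 4 not called.

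Of 29 cell cycle genes 5 rose (17.2%, against 11.7% of all genes tested) and 7 fell (24.1%, against 7.12%), with a median of −0.34. Inhibitors of cyclin-dependent kinases were among the rises, with *Cdkn2b* going from 4.42, 2.33 and 3.59 TPM to 69.4, 67.8 and 61.7 TPM, *Cdkn2a* from a mean of 24.3 to 154 TPM and *Cdkn1a* from 38.9 to 101 TPM. *Ccnd2* and *Myc* rose to 66.6 and 64.2 TPM. The cyclins *Ccnd1*, *Ccnd3* and *Ccne1* fell from 83.9, 141 and 262 TPM to 22.8, 60.0 and 102 TPM. *Mcm2*, *Mcm3*, *Mcm5* and *Pcna*, of DNA replication, fell by 1.02, 1.10, 1.14 and 1.11 on the log2 scale, close to the 2-fold limit. The proliferation marker *Mki67* had 143 and 146 TPM.

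Of 15 p53 targets 6 rose and 1 fell (6.67%, near the 7.12% of all genes tested), with a median of 0.60. *Cdkn1a*, *Ccng1*, *Phlda3*, *Bbc3*, *Plk2* and *Trp53inp1* were those that rose, and *Gdf15* fell from 51.8, 53.1 and 45.2 TPM to 3.97, 2.83 and 3.1 TPM. *Mdm2* had 117 and 177 TPM. Of 18 glycolysis genes none rose and 1 (5.56%, near the 7.12% of all genes tested) was called lower. With an equal median 3 were called lower, and none without knockout day 3 replicate 3. The 1 called lower was *Gapdh*. Its day 1 values of 49.1, 49.1 and 187 TPM spread widely, and its many near-identical pseudogenes leave it uncertain. Of 16 germline genes 2 rose (12.5%, near the 11.7% of all genes tested), *Rec8* (33 to 252 TPM) and *Meioc* (14.6 to 56.7 TPM). Another 5 fell (31.25%, against 7.12% of all genes tested), among them *Dazl* (25.9 to 8.33 TPM).

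Of 18 genes for the making and binding of U6 snRNA, the substrate of USB1, none was called (median −0.36), with 1 called lower under an equal median. In the limma fit 13 of the 18 passed the adjusted p without reaching 2-fold. Passing it was common, with 9054 of all 17508 genes tested doing so at any fold. Of the 18 genes, 17 had a negative log2 fold change, and their summed level was 1826 to 1971 TPM at day 1 and 1407 to 1469 TPM at day 3. *Tut1*, which adds the U tail that USB1 trims, had 51.6, 50.3 and 51.1 TPM at day 1 and 56.5, 66.2 and 63.4 TPM at day 3. The LSM genes, whose ring binds the U6 tail, ran from −0.33 (*Lsm6*) to −0.79 (*Lsm7*) on the log2 scale. U6 RNA itself was not analysed here.

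**Figure D4:**
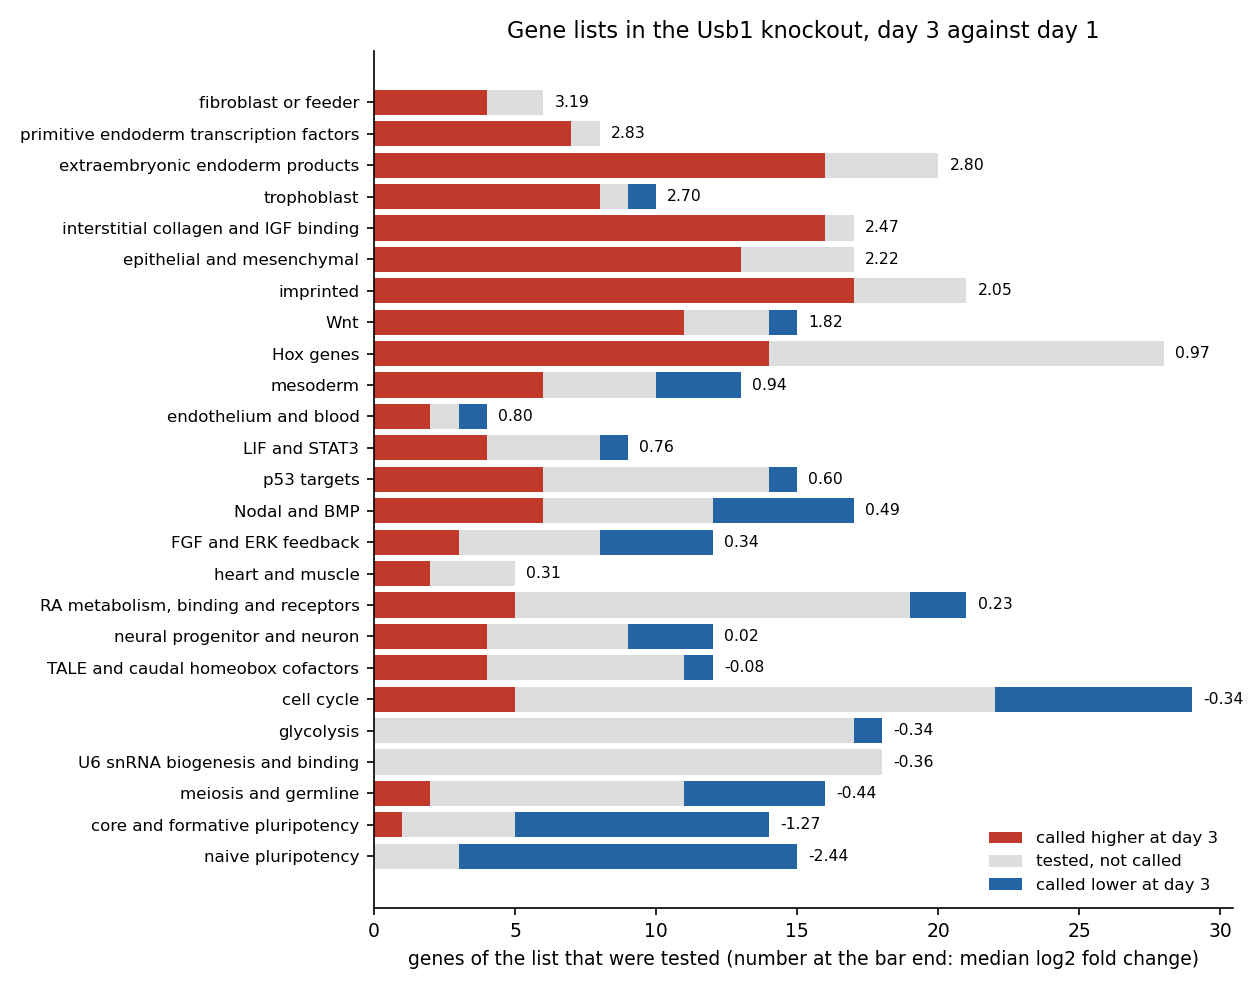
For each of 25 gene lists with a gene tested, the number called higher (red), not called (grey) and called lower (blue) from day 1 to day 3 in the *Usb1* knockout, with the median log2 fold change of the list. Over all genes tested 11.7% were called higher and 7.12% lower, with a median of 0.07. Genes low at day 1 passed the filter only through day 3.

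Further genes met the naming rule outside these lists. *Tgfb2*, a TGF-beta ligand, rose from 0.366, 0.63 and 0.53 TPM to 99.7, 112 and 104 TPM, and *Podxl*, the sialomucin podocalyxin, from 6.49, 5.72 and 6.36 TPM to 417, 516 and 494 TPM. *Pmp22*, a membrane protein known from myelin, and *App*, the amyloid precursor protein, rose from means of 10.2 and 1.47 TPM to 546 and 112 TPM. *Bex1*, *Bex3*, *Tceal9* and *Tuba1a* were, with the keratins, among the 10 largest gains in TPM of called genes and ended at 1763, 1837, 1475 and 1391 TPM.

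*Eras*, the constitutively active Ras of stem cells, fell from 57.1, 66.6 and 62.2 TPM to 1.8, 1.48 and 2.37 TPM. *Foxn4*, *Nkx6-3*, *Gm13889*, *Myo1f*, *Rln3* and *Cbr3* fell by 4.58, 4.47, 4.38, 4.29, 4.21 and 4.21 on the log2 scale. Of the large losses in TPM, *Hsp90aa1*, a chaperone, fell from a mean of 3259.7 to 1312 TPM and *Dusp9*, an ERK phosphatase, from 1578 to 529 TPM after 227 TPM at day 0. *Eif4a1*, *Gpx4* and *H2afx* fell to means of 591, 535 and 490.0 TPM from 1389.9, 1228 and 1038 TPM. *Rps27rt* was called lower, but as a near copy of a ribosomal protein gene it is uncertain.

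The same days in wild-type cells show how much of the response was shared. In wild-type 3355 of 19580 genes (17.1%) were called. Across genes, which are not independent replicates, log2 fold changes in knockout and wild-type correlated (Pearson's r = 0.825, Spearman's rho = 0.761) and had the same sign in 78.2%. The difference itself, the change in the knockout minus that in wild-type, was called in 544 genes (2.78%), with 412 more positive and 132 more negative in the knockout. With an equal median these were 247 and 205, so the excess of positive differences depended on the scaling.

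RA genes were among those that differed. *Crabp2* had 8.91 ± 2.4 and 139.7 ± 8.7 TPM in the knockout (SD, n = 3) and 65.9 ± 5.1 and 85.5 ± 14 TPM in wild-type, so that wild-type cells were already high at day 1 (difference 3.49 ± 0.22 SE, limma adjusted p = 1.2e-05). *Hoxb1* had a mean of 3.04 TPM in the knockout and 15.7 TPM in wild-type at day 1, and 40.9 and 36.5 TPM at day 3 (difference 2.20). *Cyp26a1* was alike at day 1, with 110.3 ± 5.1 and 111 ± 7.1 TPM, and at day 3 had 88.9 ± 23 TPM in the knockout and 402 ± 49 TPM in wild-type (difference −2.18 ± 0.21, limma adjusted p = 1.7e-04). *Cyp26c1* and *Stra6*, the receptor for retinol uptake, differed by −1.57 and 1.66, and *Cyp26b1* by 1.07, a value not called with an equal median. *Rarb* was not called for a difference. The knockout line and the genotype cannot be told apart in these values.

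Several pluripotency and FGF genes fell less in the knockout. *Nanog* ended at 87.2 TPM in the knockout and 22.6 TPM in wild-type, *Sox2* at 223 and 115 TPM and *Fgf4* at 10.5 and 2.9 TPM, though the difference for *Sox2* was not called with an equal median. Of the 12 FGF and ERK feedback genes 7 had a more positive change in the knockout and none a more negative one, and with an equal median 4 did. *Dusp6* was level in the knockout and went from 62.3 to 17.1 TPM in wild-type (difference 2.00 ± 0.10, limma adjusted p = 2.6e-06). *Ccnd1* ended at 22.8 and 6.67 TPM. *Tcl1* and *Tdh* went the other way, with differences of −2.46 and −2.70.

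*Tgfbi*, a matrix protein, had 71.9 and 74.5 TPM in the knockout and 165 and 23 TPM in wild-type (difference 2.84 ± 0.12). *Igfbp3* went from 69.3 to 266 TPM in the knockout and from 98.1 to 59.9 TPM in wild-type. *Sox17* reached 12.2 TPM in the knockout and 39.6 TPM in wild-type. *Serpinb6c* had the most negative difference of the genes that met the naming rule, −3.73, as it was at 0.894 TPM at day 1 and 23.7 TPM at day 3 in wild-type and level in the knockout. *2610509F24Rik*, *Platr11* and *Foxi3* had more positive differences (3.20, 2.84 and 2.76) and *Gm37934* and *Mybpc3* more negative ones (−3.55 and −2.15). No gene of the Nodal and BMP, LIF and STAT3 or U6 lists (17, 9 and 18 genes tested) was called for a difference. With only 2.78% of all genes called, lists this short cannot be told apart from all genes by this.

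**Figure D5:**
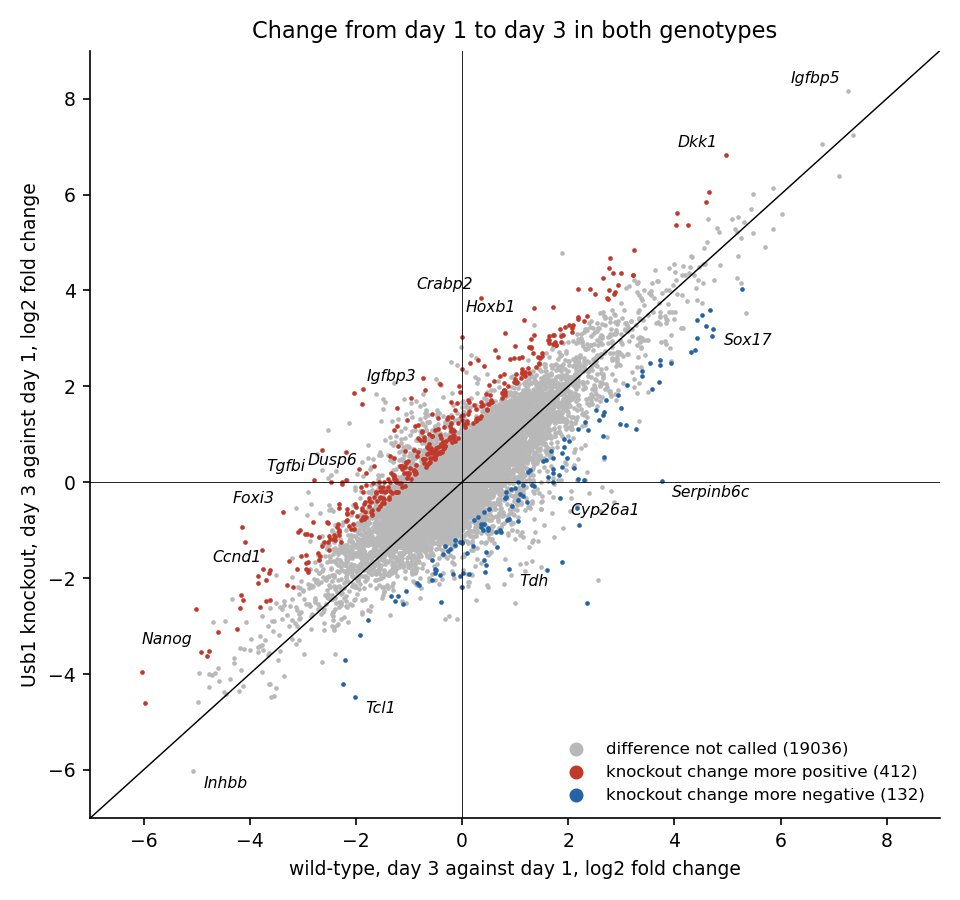
Log2 fold change from day 1 to day 3 of each of 19580 genes in wild-type (x axis) and *Usb1* knockout (y axis) cells, with genes called for a difference in colour. The points follow the diagonal (r = 0.825), with 412 genes (red) more positive and 132 (blue) more negative in the knockout.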

How the data were processed

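Libraries were made from total RNA with the NEBNext Ultra RNA kit, and the deposited table holds TPM values per gene and library, made by the authors. The submitters' processing notes name HISAT2 2.1.0, StringTie 1.3.6 and GRCm38.p6. TPM are scaled within each library, so a rise of abundant genes lowers the others, and no strand setting is given. The table has 54532 genes, of which 54495 matched GENCODE M21. For 100 symbols listed more than once the identifier with the highest mean was used.

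Groups came from the labels. Log2(TPM + 1) values of genes with at least 1 TPM in at least 3 of 6 libraries were fitted with limma 3.58.1 in R 4.3.3 (empirical Bayes with a trend, two-sided, Benjamini-Hochberg adjustment). Fold changes are on the log2(TPM + 1) scale, which understates the change of low genes. The difference between the genotypes was the interaction in a fit of 12 libraries. Tables were made in Python 3.11.15 with pandas 2.3.3, and plots with matplotlib 3.10.9. On simulated data for this comparison, with 17631 genes, 98% of 200 genes changed by 2 on the log2 scale were called and 27 unchanged ones. Read numbers were recovered from TPM, gene length and each library's step, and 96.3% to 96.7% of values in the 6 libraries were whole within 0.01. Limits for a count of 0 are 3 reads and cover counting error only.

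Named genes were, among called genes, the 12 largest rises and falls in log2 fold change (protein-coding, no overlap, at least 10 TPM in the higher day) and the 10 largest gains and losses in mean TPM. The 6 largest differences between genotypes each way came from genes called for the difference. Members of the gene lists were named as well. The members and lists were chosen with earlier results of these data known, and some list members are not reported here. Alternatives were another pseudocount, filters, fold thresholds, scalings, a robust variance model, all 17 libraries, a replicate block, voom and leaving out each library. When a library was left out the genes tested stayed those of the full comparison.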

Additional observations from a re-analysis of the deposited data

Results flagged for a closer look

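The change from day 1 to day 3 differed between *Usb1* knockout and wild-type cells in 544 of 19580 genes by a test of the difference itself (limma adjusted p under 0.05 and at least 2-fold), and 4898 genes had an unadjusted p under 0.05. All values below are differences in log2 fold change, knockout minus wild-type, of genes named in the report. They rest on 1 knockout line, which cannot be told apart from the genotype. Of these 50 genes 42 were called with an equal median and 34 in every alternative run, and none changed sign. Those not called with an equal median were *Sox2*, *Dusp4*, *Fgfr2*, *Cyp26b1*, *Pecam1*, *Gata3*, *Lrp2* and *Wnt6*.

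Among RA, *Hox* and cofactor genes the difference was 3.49 for *Crabp2*, 2.20 for *Hoxb1*, 1.68 for *Meis2*, 1.66 for *Stra6*, 1.07 for *Cyp26b1*, −1.57 for *Cyp26c1* and −2.18 for *Cyp26a1*. Among pluripotency genes it was 1.38 for *Nanog*, 1.37 for *Fgf4*, 1.13 for *Sox2*, −2.46 for *Tcl1* and −2.70 for *Tdh*. Among FGF and cell cycle genes it was 2.00 for *Dusp6*, 1.79 for *Ccnd1*, 1.65 for *Spry4*, 1.23 for *Etv5*, 1.16 for *Dusp4* and 1.10 for *Fgfr2*.

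Among genes of endoderm, mesoderm and neural tissue the difference was 1.61 for *Sox7*, 1.48 for *Irx3*, 1.38 for *Ncam1*, 1.26 for *Hand1*, 1.24 for *Meox1*, 1.19 for *Pecam1*, 1.14 for *Foxc2*, 1.09 for *Gata3*, 1.06 for *Lrp2* and −1.53 for *Sox17*. Among genes of matrix, adhesion, Wnt and growth factors it was 2.84 for *Tgfbi*, 2.63 for *Igfbp3*, 1.86 for *Dkk1*, 1.42 for *Vim*, 1.39 for *Podxl*, 1.33 for *Igf2*, 1.26 for *Col1a1*, 1.17 for *Cdh2*, 1.11 for *Col3a1* and 1.10 for *Wnt6*. Among the remaining genes it was 3.20 for *2610509F24Rik*, 2.84 for *Platr11*, 2.76 for *Foxi3*, 1.58 for *Pmp22*, 1.52 for *Peg10*, 1.28 for *Dlk1*, 1.27 for *Trp53inp1*, 1.26 for *Rec8*, −1.96 for *Cbr3*, −2.15 for *Mybpc3*, −3.55 for *Gm37934* and −3.73 for *Serpinb6c*.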

How the results depend on the processing

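The count of 3301 genes called in the knockout became 9054 (5162 higher, 3892 lower) by adjusted p alone and 6111 (3673 higher, 2438 lower) at 1.5-fold, and the genes called lower became 821 with a minimum of 5 TPM, where fewer genes were tested. In wild-type the same thresholds gave 9857 and 6163 genes, and for the difference between the genotypes 1799 and 1174. Leaving out 1 library gave 3157 to 3445 genes called in the knockout (1942 to 2274 higher, 1166 to 1295 lower), 3314 to 3401 in wild-type and 421 to 676 for the difference, the last without knockout day 3 replicate 1. Under every alternative of the 6-library fit, none of the calls shared with the 3301 changed direction. Voom on reads recovered from TPM, an alternative chosen after seeing the data, called 3859 genes in the knockout and 605 for the difference. Scaling decided the balance of directions: 2055 higher and 1246 lower as deposited, 1736 and 1500 after quantile normalization and 1584 and 1728 with an equal median, which also moved the median of all genes from 0.07 to −0.13 and that of the neural list from 0.02 to −0.14.

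Pearson's r between the genotypes was 0.736 with a pseudocount of 0.1, 0.876 with a minimum of 5 TPM, 0.925 over genes called in the knockout and 0.929 over those called in wild-type, and the cause was not tested. Of 199 named genes called, 185 kept their call in every alternative run and none reversed. The other 14 (*Bmp4*, *Dnmt3l*, *Gapdh*, *H2afx*, *Hoxb3*, *Il6st*, *Mcm2*, *Mixl1*, *Mybpc3*, *Platr11*, *Rps27rt*, *Snai1*, *Socs3* and *Tbx20*) lost it in at least 1, and *Mcm2* and *Mixl1* did so without knockout day 3 replicate 1. Replicate numbers did not pair the libraries, since the deviations of same-numbered libraries correlated at −0.01, 0.07 and −0.10. With the replicate block 3303 genes were called in the knockout, 3369 in wild-type and 484 for the difference. Depth limits the lowest genes, which the filter of 1 TPM leaves out.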
